A study of Mus musculus with 9 samples.

Results

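CC chemokines are the 10 genes Ccl2, Ccl3, Ccl4, Ccl5, Ccl6, Ccl7, Ccl8, Ccl9, Ccl11 and Ccl24, taken by their symbols from the 24453 genes of the deposited table. All 10 were listed, and all 10 passed the filter on low reads that left 13651 genes for testing. RNA sequencing covered 9 libraries from mouse liver on the C57BL/6J background, with 3 libraries in each of the groups HSCs, CCl4-fib and NASH-fib. HSCs were hepatic stellate cells from healthy wild-type livers, purified by density only. CCl4-fib were activated fibroblasts of Col1a2-GFP Tg mice that had been given carbon tetrachloride (CCl4) 2 times a week for 8 weeks. NASH-fib were activated fibroblasts of Col1a2-GFP Tg mice that also lacked the melanocortin 4 receptor (MC4R-KO) and ate Western diet for 20 weeks from the age of 8 weeks. Both kinds of fibroblasts were sorted as CD45- GFP+ cells, so they are the cells in which the Col1a2 promoter was active, and HSCs carried neither the transgene nor a sort against CD45. Each library came from cells pooled from 3 to 5 mice. Genotype, diet, toxin and the way of purification differ together between the groups and cannot be told apart.

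Chemokines are small secreted proteins that guide the migration of leukocytes along concentration gradients by binding G protein-coupled receptors. In the CC family the conserved cysteines near the amino terminus stand side by side. Injured liver is known to make such ligands in stellate cells, macrophages and endothelium, and Ccl2 acting on Ccr2 is the best known route by which blood monocytes enter it. Ccl7 and Ccl2 are monocyte attractants that share Ccr2, Ccl11 and Ccl24 are eotaxins that act on Ccr3 and draw eosinophils, Ccl3, Ccl4 and Ccl5 are inflammatory chemokines of macrophages and lymphocytes, and Ccl6 and Ccl9 are rodent ligands of Ccr1.

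The adjacent cysteines that define the family were found in the coding sequences of the members. The lines give 36 bases of the coding sequence of 9 of them, 5′ to 3′, with the adjacent cysteine codons in capitals, from the GENCODE transcripts for mouse build GRCm38. They are shown because these codons are what makes the genes a family and because the bases around them can be compared between members.
Ccl2: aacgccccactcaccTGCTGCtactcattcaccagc
Ccl7: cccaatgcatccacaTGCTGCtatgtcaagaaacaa
Ccl8: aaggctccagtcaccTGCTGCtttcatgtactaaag
Ccl11: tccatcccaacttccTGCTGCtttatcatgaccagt
Ccl24: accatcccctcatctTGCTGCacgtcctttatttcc
Ccl6: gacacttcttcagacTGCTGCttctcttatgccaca
Ccl9: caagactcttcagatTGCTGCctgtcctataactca
Ccl4: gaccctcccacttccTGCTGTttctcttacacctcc
Ccl5: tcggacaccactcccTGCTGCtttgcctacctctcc

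Counted from the start codon, the pair stands at codons 34 and 35 of Ccl2, 33 and 34 of Ccl7, 32 and 33 of Ccl11 and 33 and 34 of Ccl24, which has 2 such pairs and is shown at the later one. In Ccl6 it lies at codons 50 and 51 and in Ccl9 at codons 57 and 58. Ccl4 writes the pair with a different codon for the second cysteine, and the other 8 shown write it alike. Position by position, the windows of Ccl6 and Ccl9 match at 24 of the 36 bases, those of Ccl4 and Ccl6 also at 24, and those of Ccl8 and Ccl9 at 10. The windows of Ccl11 and Ccl24 match at 19 bases and those of Ccl2 and Ccl7 at 15. All windows were aligned on the cysteine codons, and these counts include the bases of those codons. Ccl2 (NM_011333) lies on chromosome 11 of mm10 (82035577 to 82037452), with Ccl7 (NM_013654) 8.26 kb downstream, Ccl11 (NM_011330) 10.3 kb after Ccl7 and Ccl8 (NM_021443) 52.2 kb after Ccl11. A second group on the same chromosome holds Ccl5, Ccl9 (NM_011338), Ccl6 (NM_009139), Ccl3 and Ccl4, beginning 1409 kb beyond Ccl8. Ccl24 (NM_019577) is on chromosome 5 (135569937 to 135573043).

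No exon of a member overlaps another annotated gene, and 0% of the runs of 36 bases in Ccl2, Ccl7, Ccl11 and Ccl24 occur in another gene's transcripts. The share was 0.925% for Ccl6 and 3.33% for Ccl9, so their reads could be assigned.

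The deposited values are reads on exons multiplied by 1 factor per library, so that each library has the same total. HSC libraries held from 3071070 to 3825522 reads on genes, CCl4-fib from 4687349 to 5634273 and NASH-fib from 3289758 to 5021156, and 3 reads correspond to a value between 2.38 and 4.37. HSC replicate 2 and NASH-fib replicate 1 deviated together from their group means (r = 0.645 across the genes tested, which are not independent replicates) and share the date in their labels. CCl4-fib replicate 1 has the same date and had r = -0.072 and -0.127 with them, and the other pairs of 1 date from different groups ran from -0.171 to 0.04. Markers for the labelled cells were present in all groups. The summed value of 10 markers of quiescent stellate cells was 65337 to 84531 in HSCs, 16976 to 28260 in the CCl4-fib libraries and 29317 to 49194 in those of NASH-fib, and that of 8 markers of activated fibroblasts was 6764 to 12067, 50998 to 57347 and 29058 to 33282. Most of the stellate sum in NASH-fib came from Rgs5, at 29830, 20211 and 15987, and Dcn, at 17452, 10761 and 11914. By the test given below, 8 of the 10 stellate markers were called lower in NASH-fib than in HSCs and 7 in CCl4-fib. The shares of all tested genes called lower were 4.3% and 11.7%. Leukocyte RNA was also measured, including in the CD45- sorts. Ptprc, which encodes CD45, had values of 88.8, 314.5 and 258.2 among HSCs, 8.73, 25.5 and 24.8 among CCl4-fib and 319.5, 62.3 and 311.6 among NASH-fib. In bulk RNA, fewer cells of a type and less RNA per cell cannot be told apart.

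The 10 genes fell into different patterns, and no direction was shared by all of them. Ccl2 and Ccl7 were highest in CCl4-fib, Ccl11 was high in both kinds of fibroblasts, Ccl24 was nearly absent from NASH-fib, and Ccl6 was low in CCl4-fib. The tests were made with limma on the log2(value + 1) scale, and a difference was called where the log2 fold change reached 1 in either direction with an adjusted p below 0.05. In NASH-fib against HSCs, 2 members were called higher (Ccl11 and Ccl7) and 1 lower (Ccl24), where 8.23% of all tested genes were called higher and 4.3% lower. In CCl4-fib against HSCs, 3 were called higher (Ccl2, Ccl7 and Ccl11) and 1 lower (Ccl6), against 16.2% and 11.7% of all genes. In NASH-fib against CCl4-fib, 1 was called higher (Ccl6) and 3 lower (Ccl2, Ccl7 and Ccl24), against 4.97% and 5.66%.

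**Figure D1:**
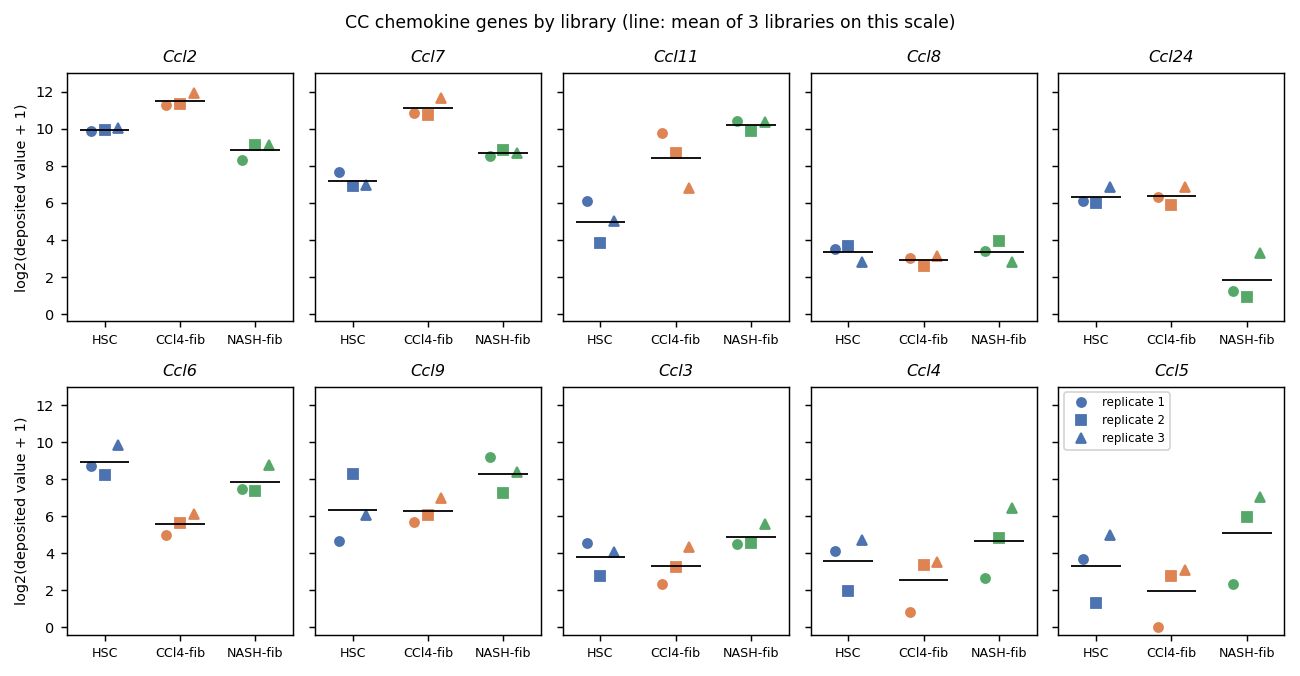
Values of the 10 CC chemokine genes in each library, as log2(deposited value + 1), for HSCs, CCl4-fib and NASH-fib. Each point is 1 library, its shape gives the replicate number, which does not pair libraries, and the line is the mean of 3 libraries on this scale. Ccl2 and Ccl7 stand highest in CCl4-fib, Ccl11 rises in both kinds of fibroblasts, Ccl24 drops in NASH-fib, and Ccl9 and Ccl5 scatter within groups.

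The libraries of 2 groups did not overlap for 4 members in NASH-fib against HSCs (24.4% of all genes), for 4 in CCl4-fib against HSCs (48.6%) and for 7 in NASH-fib against CCl4-fib (39.1%). The median log2 fold change of the members was 1.07, -0.25 and 1.68 in these comparisons, and that of all tested genes -0.02, 0.18 and -0.11. The comparisons share libraries in pairs, so they are not independent of each other.

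**Figure D2:**
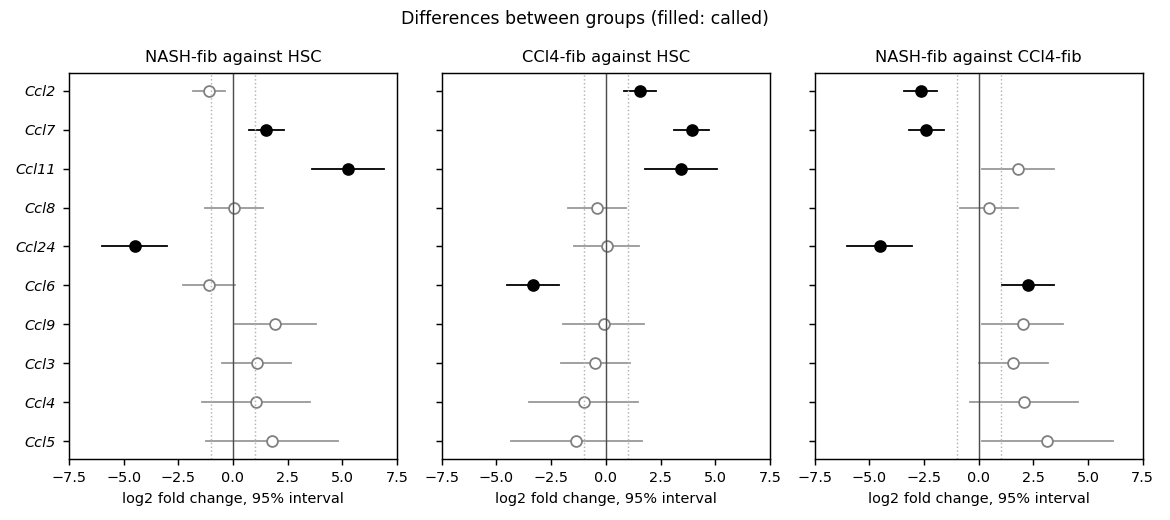
Log2 fold changes of the 10 genes in the 3 comparisons between groups, with 95% intervals from the fit, filled where called and open where not. Dotted lines mark the limit of 1 on either side of 0. Ccl11 stands farthest to the right in NASH-fib against HSCs at 5.24, Ccl7 in CCl4-fib against HSCs at 3.93, and Ccl24 farthest to the left in NASH-fib against CCl4-fib at -4.53.

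Ccl2, the main attractant of inflammatory monocytes, was the most abundant member per length in HSCs and was called higher still in CCl4-fib. Its values were 931.7, 994.6 and 1042.5 for HSCs, 2495.4, 2633.2 and 3837.2 for CCl4-fib and 323.5, 563.8 and 547.4 for NASH-fib. The 3 groups did not overlap, with every CCl4-fib library above every HSC library and every NASH-fib library below them. In CCl4-fib the log2 fold change against HSCs was 1.57 ± 0.33 (SE; adjusted p = 0.00597). NASH-fib was 6.31-fold below CCl4-fib, a log2 difference of -2.66 ± 0.33 (adjusted p = 0.00562). Against HSCs the difference of NASH-fib was -1.09 ± 0.33 and missed the threshold (adjusted p = 0.0601), with a 95% interval from -1.83 to -0.35, while DESeq2 on the recovered reads called it (adjusted p = 0.026).

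Ccl7, another ligand of Ccr2 and the neighbour of Ccl2, was called in all 3 comparisons. Its values were 201.1, 120.9 and 123.1 in HSCs, 1871.6, 1741.8 and 3297.2 in the CCl4-fib libraries and 369.8, 467.6 and 417.7 in those of NASH-fib. Again no groups overlapped, but here NASH-fib stood between the others. The log2 fold change of CCl4-fib against HSCs was 3.93 ± 0.36 (15.2-fold, adjusted p = 5.69e-05), the largest called among the members in that comparison. NASH-fib was above HSCs by 1.52 ± 0.36 (adjusted p = 0.0187) and below CCl4-fib by a log2 fold change of -2.40 ± 0.36 (adjusted p = 0.00837). The call against HSCs was lost without HSC replicate 2 (1.40, adjusted p = 0.0541), HSC replicate 3 (1.41, 0.0604), NASH-fib replicate 2 (1.44, 0.0677) or NASH-fib replicate 3 (1.52, 0.0598), and with the label date as a term (1.34, 0.2).

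Ccl2 and Ccl7 stood in different proportions in HSCs and in fibroblasts. The ratio of Ccl7 to Ccl2 was taken per length, and their exonic lengths of 794 and 801 bases are nearly equal. It was 0.119 to 0.218 among HSCs, 0.667 to 0.867 among CCl4-fib and 0.77 to 1.15 among NASH-fib. HSCs did not overlap with either kind of fibroblasts in this ratio, and the ranges of the fibroblasts overlapped. Counting was limited to 3 reads per position, and Ccl2 in CCl4-fib reached 3.93, 3.87 and 5.02 reads per exonic base and Ccl7 2.97, 2.58 and 4.35, so these highest values may be flattened. How the limit treats the strands was not given in the sources used here. Elsewhere the highest was Ccl11 in NASH-fib replicate 3, with 1.26 reads per base.

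Ccl8, the last of the members in this group on chromosome 11, was low throughout. It had 5 to 16 reads in each library, and its values ran from 5.98 to 11.7 in HSCs, from 5.10 to 7.63 in CCl4-fib and from 5.90 to 14.3 in NASH-fib. None of its differences passed the test, and with so few reads the 95% interval for CCl4-fib against HSCs spans -1.75 to 0.92.

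Ccl11, the eotaxin first found in allergic inflammation, had the highest mean per length of the 10 genes in NASH-fib. Its values were 67.8, 13.1 and 31.1 for HSCs, 883.4, 417.6 and 109.7 for CCl4-fib and 1349.9, 929.8 and 1327.8 for NASH-fib. The 3 groups were apart, and CCl4-fib replicate 3 stood nearer to the HSC libraries than the other CCl4-fib libraries did. The log2 fold change against HSCs was 5.24 ± 0.74 in NASH-fib (37.7-fold, adjusted p = 0.000972) and 3.45 ± 0.74 in CCl4-fib (11.0-fold, adjusted p = 0.00628). NASH-fib lay above CCl4-fib by 1.78 ± 0.74 without passing the test (adjusted p = 0.144, 95% interval 0.14 to 3.43). Markers of other fibroblast-like cells were also higher in both kinds of fibroblasts than in HSCs. The summed value of 6 markers of portal and adventitial fibroblasts was 122.7 to 180.5 in HSCs, 7899.6 to 10027 in the CCl4-fib libraries and 5656.3 to 11278 in those of NASH-fib, and all 6 were called higher in both comparisons with HSCs. For 6 mesothelial markers the sums were 601.4 to 985.4, 16042 to 22184 and 25119 to 31713, again with 6 called higher in both. Of all tested genes, 8.23% were called higher in NASH-fib against HSCs and 16.2% in CCl4-fib against HSCs. The part of these fibroblast-like cells in the result for Ccl11 was not tested.

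Ccl24, the other eotaxin here, went the opposite way. Its values were 67.8, 62.6 and 113.6 among HSCs, 77.8, 57.8 and 116.4 among CCl4-fib and 1.36, 0.89 and 8.85 among NASH-fib. HSCs and CCl4-fib overlapped, and all NASH-fib libraries lay far below both, with 1, 1 and 9 reads against 43 to 95 in HSCs and 68 to 122 in CCl4-fib. The log2 fold change of NASH-fib was -4.49 ± 0.67 against HSCs (adjusted p = 0.00132) and -4.53 ± 0.67 against CCl4-fib (adjusted p = 0.00811), both called under every alternative tried. CCl4-fib differed from HSCs by 0.04 ± 0.67 (95% interval -1.44 to 1.52), a value whose sign turned under other scalings. The summed macrophage markers given with Ccl6 were lowest in CCl4-fib, where Ccl24 overlapped with HSCs, and their part in the level of Ccl24 was not tested.

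The balance of the eotaxins set NASH-fib apart. The ratio of Ccl11 to Ccl24 was taken per length, with exonic lengths of 1068 and 1284 bases, and compared only between libraries. It was 1.202, 0.252 and 0.329 for HSCs, 13.7, 8.68 and 1.13 for CCl4-fib and 1193, 1256 and 180.4 for NASH-fib. All NASH-fib libraries lay above all others, with only 1 read of Ccl24 behind the ratio in each of replicates 1 and 2, and HSCs and CCl4-fib overlapped.

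Ccl6, a chemokine that rodent myeloid cells make in the absence of stimulation, was high in HSCs and lowest in CCl4-fib. Its values were 425.5, 302.9 and 908.6 in HSCs, 31.0, 49.3 and 69.7 in the CCl4-fib libraries and 175.4, 163.0 and 429.5 in those of NASH-fib. CCl4-fib was apart from both other groups, while NASH-fib replicate 3 reached the range of HSCs. The log2 fold change of CCl4-fib against HSCs was -3.34 ± 0.54 (adjusted p = 0.00132), and NASH-fib was above CCl4-fib by 2.26 ± 0.54 (adjusted p = 0.0283). The latter call was lost without CCl4-fib replicate 1 (1.96, adjusted p = 0.101), CCl4-fib replicate 2 (2.29, 0.101) or NASH-fib replicate 3 (1.81, 0.0971), and with the label date as a term (2.27, 0.0533). The difference of NASH-fib from HSCs was -1.08 ± 0.54 (adjusted p = 0.283).

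Macrophage markers moved with Ccl6. The summed value of 15 of them was 6032, 9301 and 19774 among HSCs, 487.3, 1007.9 and 922.6 among CCl4-fib and 4493, 3215 and 7223 among NASH-fib. In CCl4-fib against HSCs 12 of the 15 were called lower, against 11.7% of all genes. In NASH-fib against CCl4-fib 6 were called higher, against 4.97% of all genes. In CCl4-fib the Kupffer cell genes Marco, at 0.79, 0 and 2.86, and Timd4, at 11.9, 0 and 5.72, were at or near 0, while Lyz2 still had 204.8, 496.7 and 466.5. In NASH-fib Marco was at 0, 0 and 30.5 and Timd4 at 5.44, 0 and 53.1. Both were called lower than in HSCs there too, and neither was called between the fibroblast groups. Of 6 pan-leukocyte markers, 5 were called lower in CCl4-fib than in HSCs. Markers of sinusoidal endothelium (7 of 7) and of hepatocytes (7 of 8) were called lower as well. In NASH-fib against CCl4-fib, 7 of the 7 endothelial and 6 of the 8 hepatocyte markers were called higher. Over the 9 libraries, r of Ccl6 was 0.976 with the summed macrophage markers, 0.954 with the endothelial and 0.933 with the hepatocyte markers. The part of each of these cell types in the result for Ccl6 was not tested.

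**Figure D3:**
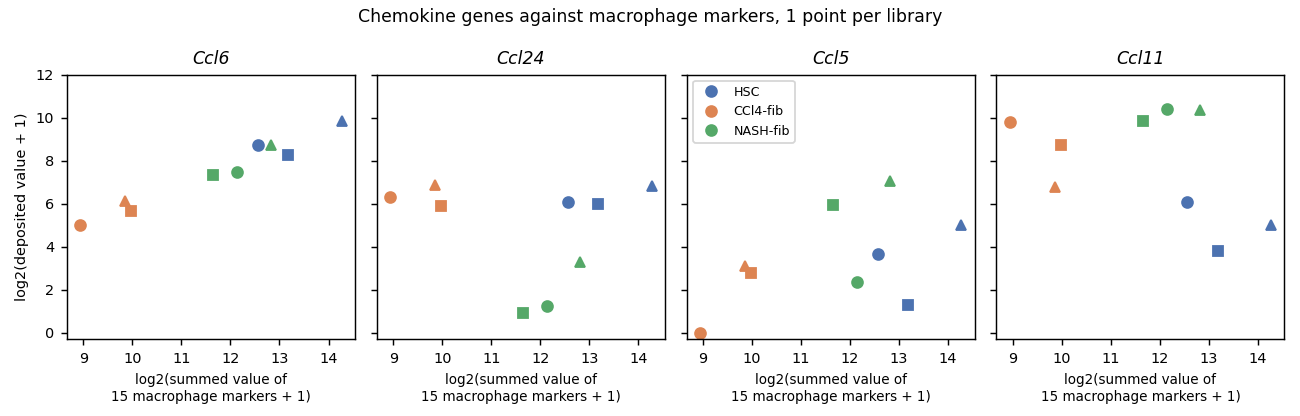
Ccl6, Ccl24, Ccl5 and Ccl11 as log2(deposited value + 1) against the summed value of 15 macrophage markers on the same scale, 1 point per library, with colours for the 3 groups and shapes for replicates 1 (circle), 2 (square) and 3 (triangle). Ccl6 lies along a rising band over all 9 libraries, while Ccl24 is low in NASH-fib only, at marker levels above those of CCl4-fib.

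Ccl9, a near relative of Ccl6 that also binds Ccr1, scattered widely within groups. Its values were 24.6, 314.5 and 65.8 for HSCs, 50.8, 67.2 and 125.9 for CCl4-fib and 587.3, 151.4 and 332.2 for NASH-fib. The high HSC library was replicate 2 and the highest of all was NASH-fib replicate 1, the pair that deviated together across genes. NASH-fib lay above HSCs by 1.93 ± 0.84 (adjusted p = 0.198) and above CCl4-fib by 2.02 ± 0.84 (adjusted p = 0.142) without passing the test. Without HSC replicate 2 the former difference was 2.91 (adjusted p = 0.0202), and without both libraries of that pair it was 2.45 (adjusted p = 0.0247).

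Ccl3, Ccl4 and Ccl5, which activated macrophages and lymphocytes make, had few reads. The values of Ccl3 were 22.2, 5.82 and 15.5 in HSCs, 3.97, 8.51 and 19.1 in the CCl4-fib libraries and 21.8, 22.3 and 46.2 in those of NASH-fib. NASH-fib exceeded CCl4-fib in every library, by 1.57 ± 0.71 on the log2 scale, which did not pass the test (adjusted p = 0.174). Ccl4 was at 16.4, 2.91 and 25.1 among HSCs, 0.79, 9.36 and 10.5 among CCl4-fib and 5.44, 27.6 and 85.5 among NASH-fib, and all its groups overlapped.

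Ccl5, known as RANTES and made by T and NK cells, had values of 11.7, 1.46 and 31.1 for HSCs, 0, 5.95 and 7.63 for CCl4-fib and 4.08, 60.6 and 130.7 for NASH-fib. NASH-fib replicate 1 lay within the range of CCl4-fib, and the other NASH-fib libraries lay above all others. NASH-fib was above CCl4-fib by 3.14 ± 1.36 (adjusted p = 0.157), and with DESeq2 the difference was called at 3.98 (adjusted p = 0.0106). Without HSC replicate 2 and NASH-fib replicate 1 it was 4.52 (adjusted p = 0.0187). That setting was chosen after seeing the data and leaves out the lowest Ccl5 library of NASH-fib, so it adds no independent weight. In 18 of the 20 alternatives, edgeR among them, the difference was not called. Lymphocyte RNA differed between the same groups. The summed value of 7 T and NK cell markers was 21.0 to 40.7 in HSCs, 0 to 1.70 in the CCl4-fib libraries and 38.3 to 219.2 in those of NASH-fib, with Cd3e, Cd3g, Cd4, Nkg7 and Gzma at 0 in every CCl4-fib library. NASH-fib replicate 1, where Ccl5 was lowest of its group, had 146.8 on this sum, and the part of these cells in the level of Ccl5 was not tested.

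Levels of different genes were compared per length, as RPKM, the reads on a gene divided by its exonic length and by the reads of the library. In HSCs Ccl2 led with 276 ± 15.5 (SD, n = 3), followed by Ccl6 with 85.3 ± 50.1, Ccl7 with 41.8 ± 12.9 and Ccl24 with 14.2 ± 4.88. Ccl6 and Ccl7 overlapped, and from Ccl24 down each gene overlapped with the next, through Ccl9, Ccl11, Ccl5, Ccl4, Ccl8 and Ccl3. In CCl4-fib Ccl2 with 834 ± 206 and Ccl7 with 649 ± 243 overlapped at the top, Ccl11 with 98.5 ± 81.6 was apart from both sides, and all from Ccl24 with 14.6 ± 5.18 down overlapped with the next. In NASH-fib Ccl11 came first with 252 ± 49.5, apart from Ccl2 with 134 ± 37.5, which overlapped with Ccl7 at 118 ± 13.8. Ccl6 followed with 40.0 ± 23.5, and Ccl24 came last with 0.644 ± 0.778, apart from the next higher gene, Ccl8, with 4.37 ± 1.85.

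The sum over the 10 genes was 405 to 528 RPKM in HSCs, 1346 to 2079 in CCl4-fib and 562 to 742 in NASH-fib, with no overlap between groups. Of the per-length signal of 24 CC ligand genes, Ccl2, Ccl7 and Ccl11 together held 69.7%, 73.4% and 49.8% among HSCs, 91.0%, 90.8% and 93.1% among CCl4-fib and 81.3%, 53.3% and 65.0% among NASH-fib. Ccl11 alone held 2.99%, 0.641% and 0.975% for HSCs, 11.95%, 6.04% and 1.06% for CCl4-fib and 48.2%, 21.5% and 32.9% for NASH-fib. Ccl2 held 43.6% to 64.8% in HSCs, 45.0% to 50.8% in CCl4-fib and a lower 15.4% to 18.1% in NASH-fib.

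**Figure D4:**
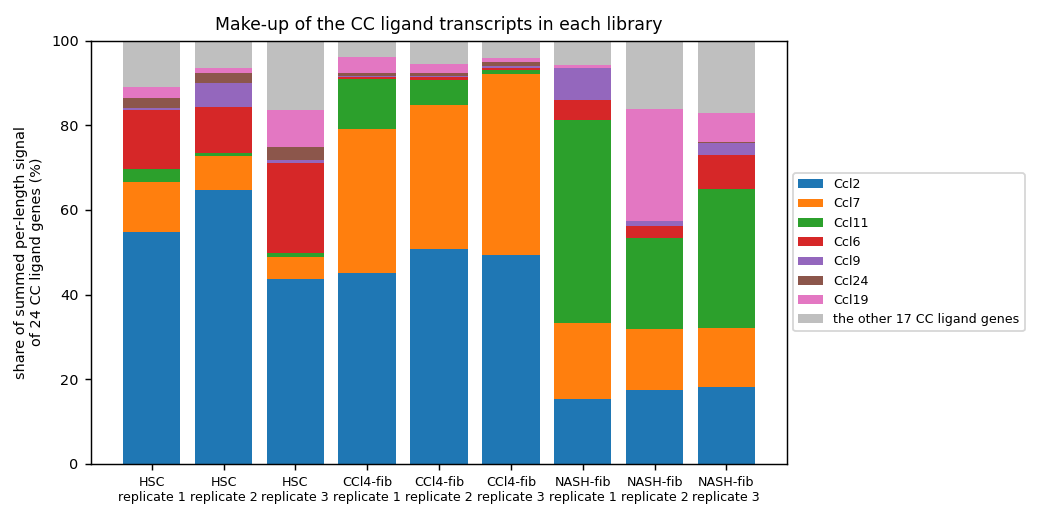
Share of each CC ligand gene in the summed per-length signal of 24 CC ligand genes, in percent, as 1 stacked bar per library. Ccl2 and Ccl7 fill most of the CCl4-fib bars, Ccl11 takes 21.5% to 48.2% of the NASH-fib bars, and Ccl19 takes 26.6% of NASH-fib replicate 2.

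The other 14 CC ligands were listed too, and 6 of them passed the filter (Ccl19, Ccl21b, Ccl21c, Ccl25, Ccl27a and Ccl27b). Of these 6, limma called 0 in NASH-fib against HSCs, 1 in CCl4-fib against HSCs and 0 in NASH-fib against CCl4-fib. In the comparisons with 0, DESeq2 and edgeR called 0 as well, and 0 had an unadjusted p under 0.05. The one called was Ccl27b, a copy of the skin and mucosal chemokine Ccl27a, at 3.56 ± 1.18 (adjusted p = 0.046), which edgeR did not call. All of its runs of 36 bases (100%) also occur in other genes, among them Ccl27a, so its reads cannot be assigned to it with certainty. The same holds for Ccl21b (100%) and in part for Ccl27a (77.6%) and for Ccl19 (63.7%), which directs dendritic and T cells to lymphoid tissue. Ccl21c was not checked for shared runs, and its values were nearly those of Ccl21b. Ccl26, the third eotaxin, had 0 reads in every library.

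For each member, the genes outside the list whose log2(value + 1) ran most alike over the 9 libraries were noted, as a description in which group differences and single libraries both count. For Ccl2 these were Fscn1 (Pearson's r = 0.976, n = 9), which encodes an actin-bundling protein, Sdad1 (0.972) and Cdk1 (0.962). For Ccl7 they were Tnfaip3 (0.983), an inhibitor of nuclear factor kappa-B (NF-kappa-B) signalling, Adora2b (0.982) and Gng13 (0.982). For Ccl11 they were Apod (0.985), Atp6v0a4 (0.976) and Myo5b (0.975), and for Ccl24 Cela1 (0.946), Aldh1a3 (0.945) and Plk3 (0.927). For Ccl6 they were Folr2 (0.989) and AF251705 (0.986), of which the former marks resident macrophages, and the hepatocyte bile acid transporter Slc10a1 (0.985). Among the remaining members the highest r was 0.95 for Ccl8 with Gm13315, 0.947 for Ccl3 with Ube3c, 0.945 for Ccl9 with Fundc1, 0.935 for Ccl5 with Chac2 and 0.926 for Ccl4 with Zufsp.

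The receptors that limma called were lowest in CCl4-fib. Of 15 receptor genes, 8 passed the filter. In CCl4-fib against HSCs limma called 5 of the 8 lower and 0 higher, where DESeq2 called 6 lower and edgeR 5 and where 11.7% of all genes were called lower and 16.2% higher by limma. In NASH-fib against CCl4-fib it called 4 higher and 0 lower, against 4.97% and 5.66% of all genes, where DESeq2 called 6 higher and edgeR 3, without Ackr2. Ccr1, Ccr9 and Ccrl2 were called by limma in none of the comparisons. In NASH-fib against HSCs it called 0, with 1 at an unadjusted p under 0.05, which was Ackr1, the only receptor that DESeq2 called, while edgeR called 0. The median log2 fold change of the 8 was -2.47, 3.00 and -0.23 in this order.

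Ccr2, the receptor of Ccl2 and Ccl7 on monocytes, had values of 59.6, 164.6 and 32.3 in HSCs, 7.94, 23.0 and 1.91 in the CCl4-fib libraries and 558.7, 81.1 and 249.6 in those of NASH-fib. Its log2 fold change was -3.02 ± 0.92 in CCl4-fib against HSCs (adjusted p = 0.0333) and 4.72 ± 0.92 in NASH-fib against CCl4-fib (adjusted p = 0.0154). Ccr2 is known as a leukocyte gene, and CCl4-fib libraries, which were lowest in it, were also lowest in macrophage and pan-leukocyte markers. The part of leukocyte RNA in this difference was not tested.

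Ccr1, a receptor of Ccl6 and Ccl9, had values of 0, 27.7 and 8.37 for HSCs, 0, 0 and 6.68 for CCl4-fib and 68.0, 11.6 and 44.2 for NASH-fib, and none of its differences were called. Ccr3, the receptor of Ccl11 and Ccl24 on eosinophils, did not pass the filter, and its values were 1.17, 0 and 32.3 in HSCs, 0.79, 0 and 7.63 in the CCl4-fib libraries and 0, 4.45 and 23.6 in those of NASH-fib. The 6 markers of eosinophils and mast cells, of which 3 had 0 reads in every library, summed to at most 15.2. Ccr4 and Ccr8 had 0 reads in every library.

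**Figure D5:**
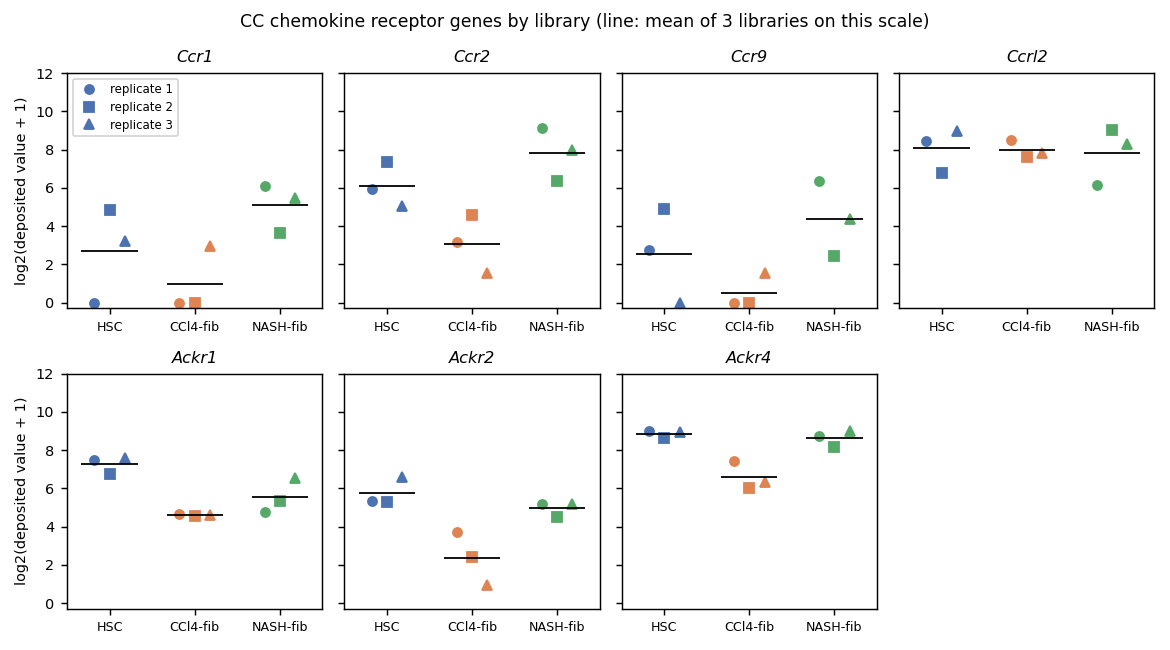
Values of 7 of the 8 CC chemokine receptor genes that passed the filter, as log2(deposited value + 1), in HSCs, CCl4-fib and NASH-fib. Each point is 1 library, its shape gives the replicate number, and the line is the mean of 3 libraries on this scale. Ccr2, Ackr2 and Ackr4 are lowest in CCl4-fib, and Ccrl2 overlaps in all groups.

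Atypical receptors bind chemokines without signalling through G proteins and remove or present them. Ackr4, which takes up Ccl19, Ccl21 and Ccl25, was at 501.5, 391.7 and 492.6 among HSCs, 171.4, 64.6 and 78.2 among CCl4-fib and 426.8, 287.7 and 502.2 among NASH-fib. It was called lower in CCl4-fib than in HSCs (-2.25 ± 0.42, adjusted p = 0.00297) and higher in NASH-fib than in CCl4-fib (2.04 ± 0.42, adjusted p = 0.0184). Ackr2, the scavenger of inflammatory CC chemokines, followed the same calls with -3.40 ± 0.73 (adjusted p = 0.00622) and 2.60 ± 0.73 (adjusted p = 0.0469). Ackr1, which endothelium and red cells use to bind chemokines, was called lower in CCl4-fib (-2.68 ± 0.52, adjusted p = 0.00369) and was at -1.71 ± 0.52 in NASH-fib against HSCs without passing (adjusted p = 0.0585). Ccrl2, which presents chemerin, was at 356.5, 109.2 and 509.3 for HSCs, 367.5, 197.3 and 223.3 for CCl4-fib and 70.7, 529.9 and 315.5 for NASH-fib.

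Cytokines known to induce these chemokines, and their receptors, were listed with 18 genes, of which 14 passed the filter. In CCl4-fib against HSCs 1 was called higher and 3 lower, against 16.2% and 11.7% of all genes. In NASH-fib against HSCs the counts were 0 and 1, against 8.23% and 4.3%. In NASH-fib against CCl4-fib they were 1 and 3, against 4.97% and 5.66%. The gene called higher in CCl4-fib against HSCs was Cd14, the co-receptor for lipopolysaccharide, with values of 31.6, 32.0 and 100.4 in HSCs, 957.2, 1034.2 and 625.9 in the CCl4-fib libraries and 27.2, 157.6 and 119.9 in those of NASH-fib. It was called at 4.16 ± 0.67 in CCl4-fib against HSCs (adjusted p = 0.00132) and -3.39 ± 0.67 in NASH-fib against CCl4-fib (adjusted p = 0.0162). The summed macrophage markers were lowest in CCl4-fib, and their part in the level of Cd14 was not tested.

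Il1b, an interleukin of activated myeloid cells, was at 146.1, 80.1 and 275.0 among HSCs, 0, 11.1 and 3.82 among CCl4-fib and 193.0, 93.5 and 241.8 among NASH-fib. It was called lower in CCl4-fib than in HSCs (-5.26 ± 0.85, adjusted p = 0.00132) and higher in NASH-fib than in CCl4-fib (5.41 ± 0.85, adjusted p = 0.00875). Il1a was called lower in CCl4-fib than in HSCs (-6.19 ± 1.38, adjusted p = 0.00755) and varied among NASH-fib libraries, with 621.2, 8.02 and 149.4. Macrophage markers were also lower in CCl4-fib than in HSCs, while NASH-fib replicate 2 had Il1a in the range of CCl4-fib at a higher marker sum, and the part of leukocyte RNA in these levels was not tested.

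Both receptors of tumour necrosis factor were called lower in NASH-fib than in CCl4-fib, Tnfrsf1a by a log2 fold change of -1.59 ± 0.37 (adjusted p = 0.0251) and Tnfrsf1b, which edgeR did not call here, by -1.26 ± 0.32 (adjusted p = 0.0331). Tnfrsf1b was also called lower against HSCs, in NASH-fib at -2.49 ± 0.32 (adjusted p = 0.000508) and in CCl4-fib at -1.23 ± 0.32 (adjusted p = 0.0162). The inducers of eotaxins Il4 and Il13, as well as Ifng, had 0 reads in all libraries, and Il4ra, which encodes a receptor chain for Il4 and Il13, was at 128.6, 39.3 and 243.9 for HSCs, 463.5, 512.0 and 272.9 for CCl4-fib and 32.6, 143.4 and 130.7 for NASH-fib. Limma called none of its differences, and DESeq2 called it lower in NASH-fib than in CCl4-fib (limma -2.22, adjusted p = 0.0747).

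The signal transducers through which Toll-like and cytokine receptors induce chemokines were listed with 12 genes, all of which passed the filter. In CCl4-fib against HSCs limma called 3 higher and 0 lower, against 16.2% and 11.7% of all genes, and DESeq2 also called Traf6 lower. In NASH-fib against CCl4-fib it called 0 higher and 3 lower, against 4.97% and 5.66% of all genes, with 0 higher and 7 lower at an unadjusted p under 0.05, and DESeq2 called 5 lower (Irf1, Myd88, Nfkb2, Rela and Tnfaip3). In NASH-fib against HSCs it called 0, as did DESeq2 and edgeR, with 0 higher and 2 lower at an unadjusted p under 0.05. Tnfaip3 was at 64.3, 53.9 and 44.2 in HSCs, 308.0, 226.2 and 375.9 in the CCl4-fib libraries and 73.4, 114.9 and 80.6 in those of NASH-fib, with log2 fold changes of 2.45 ± 0.38 in CCl4-fib against HSCs (adjusted p = 0.00107) and -1.74 ± 0.38 in NASH-fib against CCl4-fib (adjusted p = 0.0222). Myd88, the adaptor of Toll-like and interleukin receptors, had differences of 1.43 ± 0.42 (adjusted p = 0.0294) and -1.88 ± 0.42 (adjusted p = 0.0234). Nfkb2, a subunit of NF-kappa-B, was called higher in CCl4-fib than in HSCs (1.97 ± 0.63, adjusted p = 0.0384), and Rela, another subunit, was called lower in NASH-fib than in CCl4-fib (-2.12 ± 0.60, adjusted p = 0.0471), and edgeR called neither of these subunits.

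RefSeq promoters (GRCm38.p6, 300 bases around the start) were at hand for 4 of the 10 members, Ccl3, Ccl6, Ccl8 and Ccl9, and were searched on both strands. A kappa-B motif and the AP-1 motif TGANTCA were found in the promoter of Ccl9 and not in those of the other 3, and 4.51% and 7.81% of 32851 promoters hold them. The STAT6 motif (TTC and GAA with 4 bases between), held by 6.95% of promoters, was in none of the 4.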

How the data were processed

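The 10 genes and the lists of other genes were chosen with earlier results of these data known. The sources state that the authors amplified RNA with the SMARTer Ultra Low Input kit, sequenced single-end reads, aligned them to mm10 with STAR and counted them with HOMER. Per the file headers, counting took both strands of the exons of RefSeq genes, at most 3 per position, with transcripts condensed to 1 entry per gene, and the counts were normalized for DESeq2 over 10 libraries, of which 9 were used here. The deposited values are a signal per gene, and 100% of them were whole multiples of what 1 read is worth in their library (tolerance 0.05 reads), which gave back the reads.

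Main tests used limma 3.58.1 in R 4.3.3 on log2(value + 1), in 1 fit over 9 libraries and with a mean-dependent prior variance, for 13651 genes kept by filterByExpr of edgeR 4.0.16 (minimum count 10), with Benjamini-Hochberg adjustment over all of them. Such fold changes understate the change of low genes. Reads were amplified without molecular identifiers, so limits from low counts cover counting error only, and p-values measure the spread between pooled libraries. The alternatives were DESeq2 1.42.0 and edgeR on the recovered reads, other scalings, filters and pseudocounts, a fit on the 2 groups compared only, a replicate block, a term for the label date, each library left out in turn and, chosen after seeing the data, HSC replicate 2 and NASH-fib replicate 1 left out together. Genes named were all members, called or receptor genes of 4 fixed lists of related genes, and the 3 genes most correlated with each member, of which only the first is given for 5 members. Genes of the marker lists, and genes of the fixed lists without reads, a call or unique sequence, were named after their values were seen. The fit was tested on simulated data. Promoters of 6 members and protein sequences were not analysed here, and 1 receptor gene, 1 motif and 1 sequence are not reported here.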

Additional observations from a re-analysis of the deposited data

How the results depend on the processing

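Across the 10 genes, 3 comparisons and 20 alternatives, 569 of 600 fold changes kept their direction and their side of the threshold, 9 lost a call, 6 gained one and 16, all of genes that were never called in that comparison, changed sign. Of the counts of members called, the 2 higher in NASH-fib against HSCs became 1 with the label date as a term and 1 to 2 with a library left out, where Ccl7 was lost, and 3 without HSC replicate 2 and NASH-fib replicate 1, which added Ccl9, and the 1 lower became 2 with DESeq2, which added Ccl2. The 1 higher in NASH-fib against CCl4-fib became 3 with DESeq2, which added Ccl5 and Ccl9, 2 without HSC replicate 2 and NASH-fib replicate 1, which added Ccl5, 0 with the date as a term and 0 to 1 with a library left out, where Ccl6 was lost. Without HSC replicate 2, Ccl9 was called higher in NASH-fib against HSCs and Ccl7 was not. The other counts of members called did not change.

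With the replicate block the counts stayed at 2 higher and 1 lower in NASH-fib against HSCs, 3 and 1 in CCl4-fib against HSCs, and 1 and 3 in NASH-fib against CCl4-fib. The deviations of libraries of the same number had r from -0.473 to 0.514, where HSC replicate 3 and NASH-fib replicate 3 had the highest, so the numbers were not taken to pair libraries.

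The changes of sign were as follows. For Ccl24 in CCl4-fib against HSCs the value was -0.04 with DESeq2, -0.07 with edgeR, -0.06 with DESeq2 size factors, -0.05 with upper-quartile factors, -0.32 with the date, from -0.22 to 0.30 with a library left out and -0.12 without HSC replicate 2 and NASH-fib replicate 1. For Ccl8 in NASH-fib against HSCs it was -0.16 with the date and ran from -0.24 to 0.33 with a library left out. In CCl4-fib against HSCs, Ccl9 ran from -0.92 to 0.89 with a library left out, the latter without HSC replicate 2, and was also at 0.89 without that library and NASH-fib replicate 1 together, and Ccl3 ran from -1.0 to 0.00, the latter without CCl4-fib replicate 1. The cause of these changes was not tested. Other scalings moved the median of all genes in NASH-fib against CCl4-fib from -0.11 to as much as 0.14 (edgeR). Ccl3, Ccl4, Ccl5, Ccl8 and, in NASH-fib, Ccl24 rest on few reads, which limits what can be said of their differences.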

Other observations

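Neutrophil RNA was higher in NASH-fib than in CCl4-fib and also set single libraries apart. Of the 7 neutrophil markers tested, 5 were called higher in NASH-fib than in CCl4-fib, against 4.97% of all genes. In NASH-fib against HSCs 0 were called. The summed value of 8 neutrophil markers was 52.6, 1080.5 and 76.5 in HSCs, 12.7, 54.4 and 104.9 in the CCl4-fib libraries and 614.4, 6165 and 1265.9 in those of NASH-fib, so that HSC replicate 2 stood far above the other HSC libraries and NASH-fib replicate 2 above all others. Ngp, a granule protein of immature neutrophils, had 454.3 in HSC replicate 2 and 2130.4 in NASH-fib replicate 2. Ccl9 was high in the former, with 314.5, and lowest of its group in the latter, with 151.4. NASH-fib replicate 2 also held the most CC ligands outside the 10, with a summed value of 1079.5 for 14 genes against 84.3 and 325.3 in the other NASH-fib libraries, of which Ccl19 made up 26.6% of the per-length signal of all CC ligands.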
